A study of Mus musculus with 8 samples.

Results

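The integrated stress response regulators are 10 mouse genes: Atf4, Atf5, Cebpb, Cebpg, Atf3, Ddit3, Nupr1, Trib3, Ppp1r15a and Sesn2. Each was represented by the single-gene probe set annotated to it on the array, and a gene with several such probe sets would have been represented by the brightest over the 8 arrays. All 10 had 1 probe set each, so no choice was needed. They are 10 of 22180 genes with a single-gene probe set and 10 of the 13308 bright enough to be tested.

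The cells were C2C12 myotubes, formed in culture from a mouse myoblast line. Before differentiation the myoblasts of every group had been transduced with a retrovirus, labelled siScramble in the control groups and siBaf60c in the knockdown groups, which per the labels' protocol expressed an shRNA. Baf60c, gene symbol Smarcd3, is a subunit of the SWI/SNF (BAF) chromatin remodelling complex. The myotubes were then kept for 12 h in 1 mM or 10 mM glucose, so the 4 groups were control at 1 mM (labelled Scrb_LG), control at 10 mM (Scrb_HG), knockdown at 1 mM (SiBc_LG) and knockdown at 10 mM (SiBc_HG). Each group held 2 arrays, described in the series design as independent biological replicates of 1 cell line, and p-values measure the spread between these samples. All values are deposited log2 expression values, and a change with glucose is the level at 10 mM relative to 1 mM. Cells from before the 12 h of treatment were not analysed here, so which of the concentrations moved a gene cannot be told apart.

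The integrated stress response is the pathway by which kinases that sense amino acid shortage, unfolded protein in the endoplasmic reticulum, double-stranded RNA or heme deficiency phosphorylate the translation initiation factor eIF2. General translation then falls, while the mRNAs of a few transcription factors, ATF4 foremost among them, are translated better through upstream open reading frames. ATF4 binds DNA as a dimer with C/EBP proteins and switches on genes of amino acid uptake and synthesis, further transcription factors, and the phosphatase subunit that closes the loop by dephosphorylating eIF2. In skeletal muscle the pathway is known for its response to amino acid shortage, mitochondrial faults and atrophy. The arrays measured transcripts only, so neither eIF2 phosphorylation nor translation was observed.

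The label check used the probe set of the knockdown target, which the annotation shares between Smarcd3 and Chpf2. At 1 mM its control arrays stood at 5.40 and 5.62 and its knockdown arrays at 2.77 and 3.01, and at 10 mM the values were 6.09 and 6.27 against 3.90 and 4.49, so it was lower on every knockdown array than on every control array. Across genes, which are not independent, replicates correlated at r = 0.987 to 0.990 and arrays of different groups at 0.939 to 0.984. Of 8 differentiated myotube markers 0 were dim, taking as dim a mean under 3, a bound set once the values had been looked at. The mean of the myotube list per array was 8.95 to 9.15 in control cells at 1 mM and 9.82 to 9.88 at 10 mM. With the knockdown it was 7.68 to 7.74 and 8.74 to 8.84. Among markers of cells that a C2C12 culture should lack, 5 of 7 macrophage, 4 of 6 adipocyte and 4 of 5 endothelial markers were dim. Fibroblast markers were not absent: only 2 of 7 were dim, and the mean of the list was 6.50 to 6.65 at 1 mM and 7.63 to 7.78 at 10 mM in control cells. With the knockdown it was 6.45 to 6.56 and 7.61 to 7.69. With glucose 5 of 8 myotube markers rose in control and 8 of 8 in knockdown cells (2 without control replicate 2 at 10 mM, and 5 without knockdown replicate 2 at 10 mM), and 6 and 5 of 6 tested fibroblast markers rose. These shifts ran in the direction opposite to that of the regulators. Of the fibroblast rises in control cells, that of Col3a1 (0.61) was not called in limma with no filter (adjusted p = 0.0789). It was also not called with median centring (adjusted p = 0.0717) or quantile normalization (adjusted p = 0.0527). Its size was 0.37 without control replicate 1 at 10 mM. Lum was dim in control cells at 1 mM (1.80 and 2.37). Of 7 undifferentiated myoblast markers 2 rose and 2 fell in each cell type, and the mean of the list lay between 5.42 and 5.70 over all arrays. Those that fell with the regulators were Hmga2, with changes of -1.88 in control and -2.12 in knockdown cells, and Myf5, with -0.81 and -0.95. The Myf5 call was lost in control cells without any array but control replicate 2 at 1 mM (adjusted p up to 0.219), and in the knockdown without any knockdown array (adjusted p up to 0.147). The adipocyte marker Pnpla2 fell in control cells (-0.85), and of 3 tested macrophage markers 2 fell in the knockdown, Cd68 (-0.99) and Ptprc (-0.67), with 0 or 1 left without any 1 knockdown array. The part of any of these marker shifts in the results was not tested. In bulk RNA, fewer cells of a type and less RNA per cell cannot be told apart.

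Some of the regulators carry in their own promoters the letters of the DNA element that ATF4 and C/EBP dimers bind. The members that showed it are printed here, with Ppp1r15a for another element described below. All 10 members fell with glucose, with the element in the promoter window searched or without it there. Bases outside that window were not searched, and any part of the element in the fall was not tested. RefSeq promoter windows (GRCm38.p6) run from 250 bases before to 50 bases after each start, and all 10 genes matched, with 11 windows because Atf5 had several starts. Searched on both strands, the ATF and C/EBP composite element TGATGNAA was found in 3 of the 10 genes, Atf3, Nupr1 and Trib3, and in 3.97% of all 32851 windows of the same 300 bases. The cAMP response element TGACGTCA, a site for ATF and CREB proteins, was found in 1 gene, Ppp1r15a, and in 1.79% of all windows. Each stretch is on the strand of its gene, which is the minus strand for all of them. Capitals mark the composite element, which reads TTGCATCA or TTACATCA on these strands, in Atf3, Nupr1 and Trib3, the core CGTCA in Atf3, and the cAMP response element in Ppp1r15a.
Atf3, chr1:191183334-191183483, the 150 bases before the start: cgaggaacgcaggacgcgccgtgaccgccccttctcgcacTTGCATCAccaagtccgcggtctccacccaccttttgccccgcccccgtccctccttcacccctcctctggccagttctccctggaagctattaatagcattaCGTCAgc
Nupr1, chr7:126625471-126625620, the 150 bases before the start: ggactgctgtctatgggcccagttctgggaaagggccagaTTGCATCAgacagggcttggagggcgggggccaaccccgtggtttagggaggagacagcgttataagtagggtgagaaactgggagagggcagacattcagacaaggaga
Trib3, chr2:152344029-152344058, 30 bases after the start: attagctcaggtTTACATCAgccgggcggg
Ppp1r15a, chr7:45526269-45526418, the 150 bases before the start: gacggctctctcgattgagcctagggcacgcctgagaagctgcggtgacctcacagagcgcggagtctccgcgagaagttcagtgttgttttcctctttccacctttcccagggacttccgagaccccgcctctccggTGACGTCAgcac

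In both Atf3 and Nupr1 the composite element read TTGCATCA and lay at bases -110 to -103, counted from the start. In Trib3 it read TTACATCA and lay after the start, at bases 15 to 22, in a stretch printed from base 3 to base 32. The cAMP response element of Ppp1r15a lay at bases -12 to -5. The core TGACG, which the cAMP response element contains, was in 5 of the 10 genes (Atf3, Atf4, Cebpb, Ppp1r15a and Trib3) and in 20.8% of all windows, and the E-box CACGTG was in 1 (Nupr1) and in 7.15%. The ER stress element was in 0 of the 10 and in 0.119% of windows. The windows of Atf5, Cebpg, Ddit3 and Sesn2 held none of these letters. A match describes the sequence and is not a site shown to be bound.

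Setting 10 mM against 1 mM glucose in the control myotubes asks how the stress regulators stand in myotubes kept at low and at higher glucose. All 10 were lower at 10 mM. In limma, 10 of 10 passed the test as lower and 0 as higher, at an adjusted p under 0.05 (Benjamini-Hochberg over 13308 genes), beside a background of 12.1% of tested genes lower and 13.2% higher. Taken with a fall of at least 2-fold, 10 of 10 passed beside 4.02% of tested genes. The members were chosen with earlier results of these data known, so their counts beside these shares are a description and no independent test. The median change of the 10 was -2.68 on the log2 scale, and that of all tested genes -0.00652. With 1 array left out the share of genes called lower dropped to 7.31% and 7.26% when either control array at 1 mM was missing (replicate 1 and 2), and to 7.94% and 7.77% when either control array at 10 mM was (replicate 1 and 2), and all 10 members passed in each case.

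**Figure D1:**
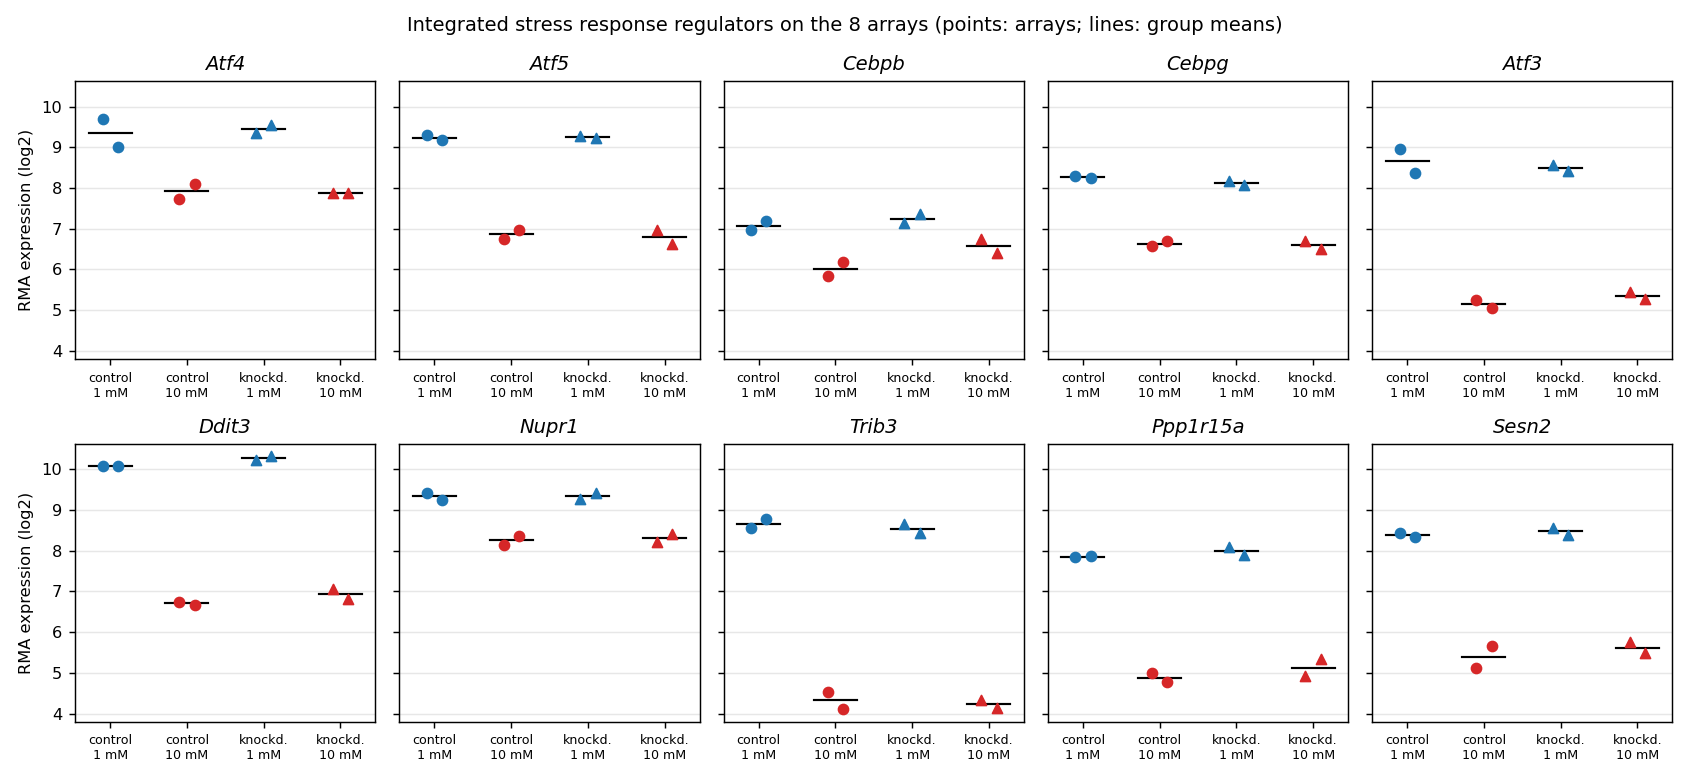
Deposited log2 expression (vertical axis) of the 10 regulators on the 8 arrays, one panel per gene; circles are control and triangles knockdown arrays, blue is 1 mM and red 10 mM glucose, and black lines are group means of 2 arrays. In every panel the 4 arrays at 1 mM lie above the 4 at 10 mM, by 3.89 for Trib3 and by 0.22 for Cebpb.

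The knockdown cells gave the same count on separate arrays: 10 of 10 passed as lower at 10 mM and 0 as higher, beside 10.6% of tested genes lower and 14.5% higher. Median centring of the arrays turned the all-gene calls from 1936 higher and 1406 lower to 1612 higher and 1826 lower, and the 10 members stayed called as lower. With a fall of at least 2-fold, 9 of 10 passed beside 3.88% of genes, Cebpb being the exception. The median change of the 10 was -2.66 and that of all tested genes 0.0274. The share of genes called lower dropped to 5.61% when knockdown replicate 1 at 10 mM was missing and to 6.58% when replicate 2 was. All 4 arrays at 10 mM lay below all 4 at 1 mM in 10 of 10 members, and in 16.7% of tested genes.

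Atf4 and its partners come first, since they drive the response. Atf4 (probe set 17313100), the central transcription factor, read 9.69 and 9.01 on the control arrays at 1 mM and 7.73 and 8.11 at 10 mM. In knockdown cells it read 9.36 and 9.54 at 1 mM and 7.87 and 7.88 at 10 mM. The concentrations did not overlap, while control and knockdown arrays did at each of them. The pair of control arrays at 1 mM stood 0.68 apart, the widest gap of any member in any group. Atf4 fell 2.70-fold in control cells (-1.43 ± 0.24, the standard error of the fit, adjusted p = 0.00499, n = 2 per group in limma) and 2.98-fold in knockdown cells (-1.57 ± 0.24, adjusted p = 0.00307). In control cells its change lay between -1.77 and -1.10 over 16 other settings, the ends of that range coming from leaving out 1 array.

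Atf5 (probe set 17490391), a relative whose mRNA is also translated better when eIF2 is phosphorylated and which is known for mitochondrial stress, moved more than Atf4 on this scale. At 1 mM the control arrays gave 9.30 and 9.18 for Atf5, and the knockdown arrays 9.29 and 9.23. At 10 mM the control arrays gave 6.75 and 6.97, and the knockdown arrays 6.98 and 6.62. The 4 arrays at 1 mM lay close together and far above the rest. Atf5 fell 5.21-fold in control cells (-2.38 ± 0.16, adjusted p = 0.000171) and 5.52-fold in knockdown cells (-2.47 ± 0.16, adjusted p = 0.000162).

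Both C/EBP genes encode partners with which ATF4 dimerizes. Cebpg (probe set 17489707), which lacks a transactivation domain of its own, stood at 8.29 and 8.24 on the control arrays kept at 1 mM, with 8.17 and 8.07 for the knockdown. At 10 mM the controls showed 6.57 and 6.69, and the knockdown arrays 6.71 and 6.51. Replicates were close in every group, and the concentrations did not overlap. It fell 3.11-fold in control (-1.64 ± 0.13, adjusted p = 0.000318) and 2.85-fold in knockdown cells (-1.51 ± 0.13, adjusted p = 0.000375).

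Cebpb (probe set 17379938), a C/EBP that also acts in inflammation and adipogenesis, changed least. Its control values at 1 mM were 6.96 and 7.19, and its knockdown values 7.14 and 7.36. Its control values at 10 mM were 5.84 and 6.18, and its knockdown values 6.75 and 6.41. The upper knockdown array at 10 mM, 6.75, came within 0.22 of the lowest array at 1 mM. Cebpb fell 2.10-fold in control cells (-1.07 ± 0.19, adjusted p = 0.00641) and 1.59-fold in knockdown cells (-0.67 ± 0.19, adjusted p = 0.0374). The call in knockdown cells was lost in 9 of 16 settings. Without knockdown replicate 1 or 2 at 10 mM the change was -0.84 (adjusted p = 0.055) and -0.50 (adjusted p = 0.192). Without knockdown replicate 1 or 2 at 1 mM the adjusted p was 0.0659 and 0.155, and without control replicate 1 or 2 at 1 mM it was 0.0508. It was 0.0616 with no filter on dim genes, 0.0571 with only the 4 knockdown arrays in the fit and 0.0507 with the replicate number as a block.

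The stress-induced transcription factors fell further, other than Nupr1. Atf3 (probe set 17231033), an ATF/CREB factor that ATF4 induces, was measured at 8.95 and 8.36 on control arrays of 1 mM glucose, against 8.56 and 8.42 on knockdown arrays. With 10 mM glucose the controls dropped to 5.26 and 5.05, and the knockdown arrays to 5.44 and 5.27. The highest array at 10 mM was 2.92 below the lowest at 1 mM, and as for Atf4 control replicate 1 at 1 mM was the highest array of all. Atf3 fell 11.3-fold in control (-3.49 ± 0.21, adjusted p = 0.000125) and 8.80-fold in knockdown cells (-3.14 ± 0.21, adjusted p = 0.000167).

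Ddit3 (probe set 17237978) encodes CHOP, a C/EBP relative that lacks normal DNA binding and is known for promoting cell death under lasting stress. It read 10.09 on both control arrays and 10.23 and 10.32 on the knockdown arrays at 1 mM. At 10 mM the controls stood at 6.74 and 6.68 and the knockdown arrays at 7.06 and 6.81. In control cells the gaps between Ddit3 replicates were small, 0.01 and 0.06, and the concentrations were separated by 3.03. It fell 10.4-fold in control (-3.38 ± 0.13, adjusted p = 4.53e-05) and 10.1-fold in knockdown cells (-3.34 ± 0.13, adjusted p = 3.97e-05).

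Nupr1 (probe set 17496345), a small stress-induced chromatin protein, shared its promoter element and the position of it with Atf3, as printed above, but not the size of the change. Controls at 1 mM gave 9.43 and 9.26, with 9.28 and 9.41 for the knockdown. Controls at 10 mM gave 8.15 and 8.37, with 8.22 and 8.41 for the knockdown. The concentrations were separated by 0.85. Nupr1 fell 2.12-fold in control (-1.08 ± 0.15, adjusted p = 0.00234) and 2.05-fold in knockdown cells (-1.03 ± 0.15, adjusted p = 0.00243).

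The genes that carry the response outward or turn it off made up the rest. Trib3 (probe set 17392925), a pseudokinase induced by ATF4 and CHOP that binds and restrains both ATF4 and the kinase AKT, changed most. In 1 mM glucose its control arrays showed 8.55 and 8.77, and its knockdown arrays 8.66 and 8.43. In 10 mM glucose its control arrays showed 4.54 and 4.11, and its knockdown arrays 4.33 and 4.13. The concentrations were far apart, control and knockdown arrays overlapped at each, and every value stayed above the bound of 3 used for dim signal. Trib3 fell 20.2-fold in control (-4.33 ± 0.19, adjusted p = 4.66e-05) and 19.9-fold in knockdown cells (-4.32 ± 0.19, adjusted p = 5.3e-05), the size ranking 5th and 6th among all falls of the 13308 genes.

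Ppp1r15a (probe set 17490878) encodes GADD34, the inducible subunit that brings protein phosphatase 1 to eIF2 and so ends the response. Arrays of 1 mM glucose showed 7.85 and 7.86 for the control and 8.09 and 7.89 for the knockdown. Arrays of 10 mM glucose showed 4.99 and 4.77 for the control and 4.92 and 5.34 for the knockdown. The 0.42 between the knockdown arrays at 10 mM was its widest gap. Ppp1r15a fell 7.88-fold in control (-2.98 ± 0.18, adjusted p = 0.000125) and 7.23-fold in knockdown cells (-2.85 ± 0.18, adjusted p = 0.000143).

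Sesn2 (probe set 17430861), the leucine-binding sestrin that holds back the growth kinase complex mTORC1, fell by a like amount. For 1 mM glucose the controls were at 8.44 and 8.34, and the knockdown arrays at 8.57 and 8.40. For 10 mM glucose the controls were at 5.12 and 5.67, and the knockdown arrays at 5.75 and 5.48. The controls at 10 mM stood 0.55 apart, and the concentrations were separated by 2.59. Sesn2 fell 7.95-fold in control (-2.99 ± 0.20, adjusted p = 0.000171) and 7.33-fold in knockdown cells (-2.87 ± 0.20, adjusted p = 0.000208).

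By size of the fall in control cells the members ran Trib3, Atf3, Ddit3, Sesn2, Ppp1r15a, Atf5, Cebpg, Atf4, Nupr1 and Cebpb. Of neighbours in that order, the 95% intervals of the change did not overlap only between Atf5 (-2.76 to -2.0) and Cebpg (-1.95 to -1.33). In knockdown cells Ddit3 and Atf3 changed places, as did Atf4 and Cebpg, and the intervals of neighbours did not overlap only between Trib3 (-4.75 to -3.88) and Ddit3 (-3.65 to -3.02). Differences between genes of this kind compare changes and not levels, since probe sets differ in brightness for the same amount of RNA, and overlap of intervals is a description and no test.

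**Figure D2:**
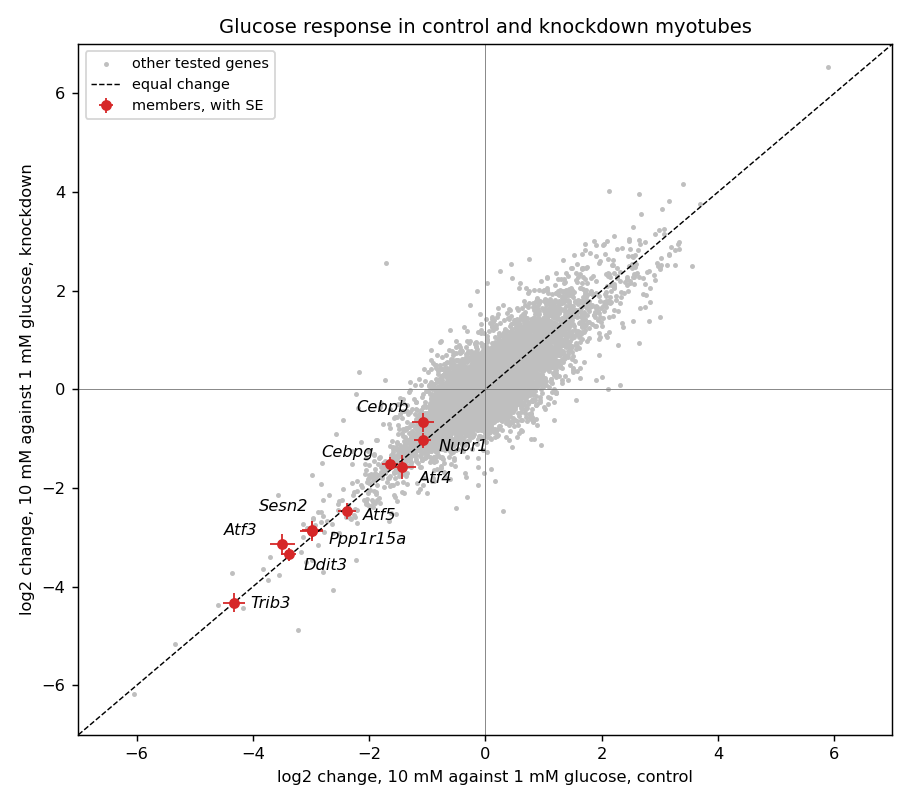
Log2 change from 1 mM to 10 mM glucose in control (horizontal axis) and knockdown cells (vertical axis); red points are the 10 regulators with standard errors from limma (2 arrays per group), grey points the other tested genes, and the dashed line marks equal change. The regulators run along that line from Cebpb (-1.07 and -0.67) to Trib3 (-4.33 and -4.32).

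The next comparisons ask whether the knockdown of Baf60c moved the regulators, and whether it altered their response to glucose. None of the 10 passed the test in limma in any of these comparisons. At 1 mM, 0 of 10 were called beside 1.49% of tested genes, at 10 mM 0 of 10 beside 1.12%, and on average over both concentrations 0 of 10 beside 4.31%. For the interaction, which subtracts the control from the knockdown glucose response, 0 of 10 were called beside 0.0% of genes. At an unadjusted p under 0.05 the counts were 0, 1, 1 and 0 members, in the same order, and 2115, 1807, 2617 and 1049 of all tested genes. With 1 array left out, genes called numbered 30 to 129 in place of 198 at 1 mM, 0 to 76 in place of 149 at 10 mM and 210 to 386 in place of 573 on average, whichever of the 8 arrays was missing, and 0 members were called each time. Of the 8 myotube markers 8 were called lower with the knockdown on average. Among them the call of Des (-0.46) was lost with no filter (limma, adjusted p = 0.0728) and with the replicate block (adjusted p = 0.0524), and it did not hold with any 1 array left out. The part of this marker shift in these comparisons was not tested.

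The single member below that unadjusted threshold was Cebpb. Its knockdown mean at 10 mM was above the control mean by 0.57 ± 0.19 (1.48-fold, limma, unadjusted p = 0.0181, adjusted p = 0.248). At 1 mM the difference was 0.17 ± 0.19 (adjusted p = 0.704). On average the difference was 0.37 ± 0.13 (adjusted p = 0.183), and the interaction was 0.40 ± 0.27 (adjusted p = 0.773).

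Ddit3 differed by 0.18 ± 0.13 at 1 mM and 0.22 ± 0.13 at 10 mM and did not pass in limma (average 0.20 ± 0.10, adjusted p = 0.295). The difference of Cebpg at 1 mM was -0.15 ± 0.13 (adjusted p = 0.634). That of Atf3 at 10 mM was 0.20 ± 0.21 (adjusted p = 0.759), and that of Ppp1r15a at 1 mM was 0.13 ± 0.18 (adjusted p = 0.766). At 10 mM Ppp1r15a differed by 0.25 ± 0.18 (adjusted p = 0.597) and Sesn2 by 0.21 ± 0.20 (adjusted p = 0.728). The difference was positive in 7 of 10 members at 1 mM and in 6 of 10 at 10 mM. For the members as a whole the knockdown difference ran from -0.16 (Atf3) to 0.18 (Ddit3) at 1 mM and from -0.09 (Trib3) to 0.57 (Cebpb) at 10 mM.

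These tests do not show that the knockdown left the regulators as they were. The 95% intervals of the averaged knockdown effect reached from -0.41 (Trib3) to 0.68 (Cebpb), so differences up to 1.61-fold lie within them. At 10 mM alone the intervals reached from -0.60 (Atf4) to 1.01 (Cebpb), up to 2.01-fold. At 1 mM alone they reached from -0.65 (Atf3) to 0.65 (Atf4), up to 1.57-fold. For the interaction they reached from -0.93 (Atf4) to 1.05 (Atf3), up to 2.07-fold. For Trib3 the interaction was 0.02 with an interval of -0.60 to 0.64, and for Ddit3 0.04 with an interval of -0.41 to 0.48.

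**Figure D3:**
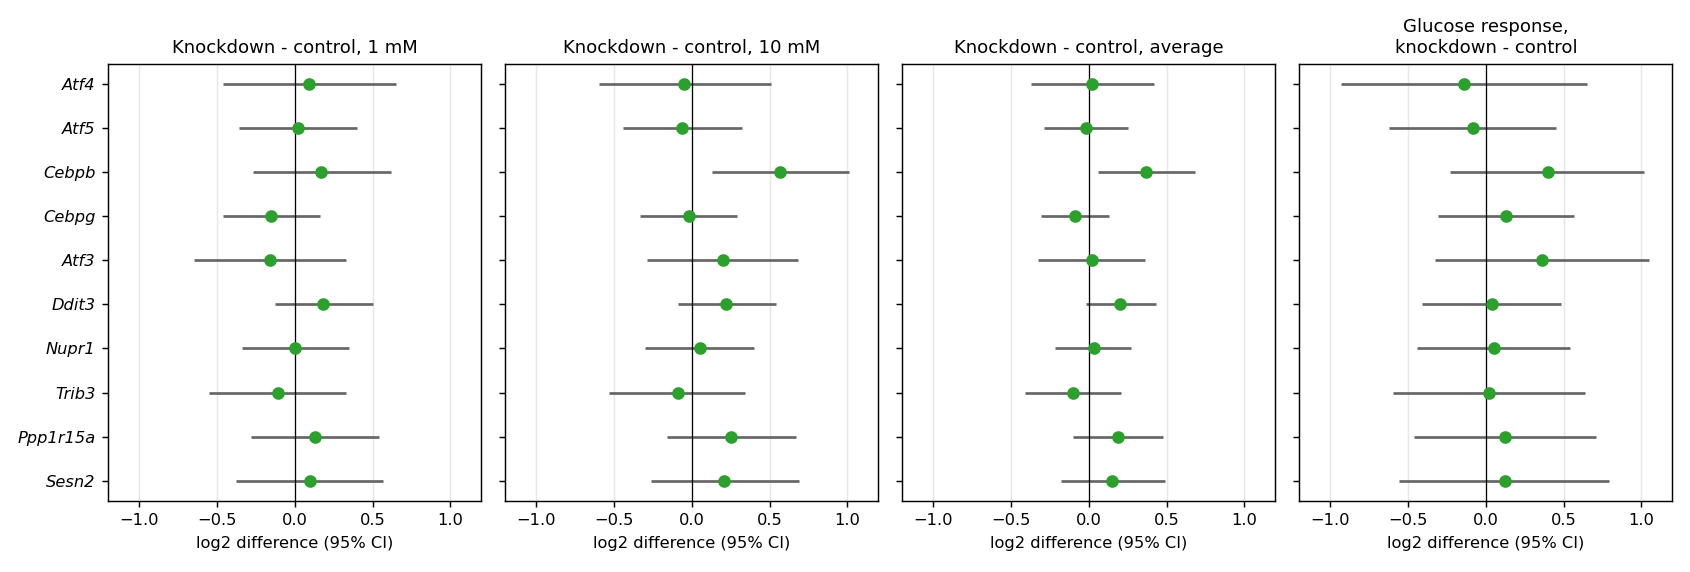
Log2 differences with 95% confidence intervals (horizontal axis) for the 10 regulators (rows): knockdown minus control at 1 mM, at 10 mM and on average, and the difference of their glucose responses (knockdown minus control). Every interval crosses 0 except those of Cebpb at 10 mM (0.13 to 1.01) and on average (0.06 to 0.68).

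The rest of the pathway was read from lists of genes upstream and downstream of the members. Where a pair of values is given, the first is the log2 change with glucose in control and the second that in knockdown cells, and the list medians stand beside -0.00652 and 0.0274 for all tested genes. List counts are to be read against the shares of all tested genes, 12.1% lower and 13.2% higher in control and 10.6% lower and 14.5% higher in knockdown cells. The lists too were chosen with earlier results of these data known, so their counts are a description. Upstream stand the sensor kinases. Of 4 eIF2 kinases, 1 fell with glucose in control cells and 0 passed in knockdown cells (medians -0.38 and -0.07), the latter count being 1 without knockdown replicate 1 at 1 mM. The endoplasmic reticulum kinase gene Eif2ak3 (PERK) changed by -0.55 ± 0.15 (adjusted p = 0.0373) and -0.49 ± 0.15 (adjusted p = 0.0552), and the first of these lost its call without any of the 4 control arrays (adjusted p 0.105 to 0.127) or either knockdown array at 10 mM (0.0593). The amino acid sensor gene Eif2ak4 (GCN2) was at -0.46 ± 0.15 (adjusted p = 0.0617) and 0.22 ± 0.15 (adjusted p = 0.343). The heme-regulated Eif2ak1 was at -0.11 and -0.03 and the double-stranded RNA sensor Eif2ak2 at -0.29 and -0.11, none past the test.

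Of 6 eIF2 and eIF2B subunit genes 2 fell in control and 1 in knockdown cells (medians -0.36 and -0.35), the latter count being 2 without knockdown replicate 2 at 1 mM. Eif2b3, part of the exchange factor that recharges eIF2, changed by -1.07 ± 0.15 and -0.93 ± 0.15. Eif2b2 of the same complex changed by -0.49 ± 0.13 in control cells (adjusted p = 0.0325), a call lost without any of the control arrays (adjusted p 0.0645 to 0.138) or either knockdown array at 10 mM (0.0518). Among 8 phosphatase parts and kinase cofactors 3 fell in each cell type, and 1 rose in knockdown cells (medians -0.25 and -0.06). Dnajc3, the chaperone p58IPK that inhibits PERK, changed by -1.95 ± 0.13 and -2.25 ± 0.13. Ppp1r15b, the constitutive counterpart of Ppp1r15a, changed by -0.72 ± 0.14 and -0.99 ± 0.14, and Impact, an inhibitor of GCN2 activation, by -0.85 ± 0.15 and -0.90 ± 0.15. The call for Ppp1r15b in control cells was lost without control replicate 1 at 1 mM (-0.61, adjusted p = 0.0513). The rise was that of the catalytic subunit gene Ppp1ca (0.42 ± 0.12, adjusted p = 0.0361), which was lost without any knockdown array (adjusted p 0.107 to 0.153) or either control array at 1 mM (0.0552).

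Downstream, most genes fell. Of 26 tested ATF4 output genes, 21 fell, 0 rose and 5 did not pass in control cells, and 22 fell, 0 rose and 4 did not pass in knockdown cells, with medians of -2.29 and -2.11. Slc7a11, the cystine importer, read 8.84 and 8.76 in control cells at 1 mM and 2.57 and 2.95 at 10 mM, and changed by -6.04 ± 0.16 and by -6.17 ± 0.16 in knockdown cells. At 10 mM its values were under the bound for dim signal on all 4 arrays, where knockdown cells gave 2.08 and 2.28. Cth, which makes cysteine, read 8.42 and 8.44 against 3.79 and 3.89 in control cells, a change of -4.59 ± 0.12, with -4.36 ± 0.12 in knockdown cells. Chac1, which degrades glutathione, changed by -3.13 ± 0.14 and -2.73 ± 0.14. Cbs, Kdm7a, Ddit4 and Fgf21 did not pass in either cell type, and Vldlr did not in control cells. The cytokine gene Gdf15 and the proline synthesis gene Pycr1, known ATF4 targets, were not analysed here.

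With the knockdown, averaged over glucose, 3 of the 26 output genes rose and 0 fell, beside 4.31% of all tested genes called in either direction. They were Cth, which rose by 0.60 ± 0.08 (adjusted p = 0.0113), Ddit4, an mTORC1 inhibitor, by 0.56 ± 0.10 (adjusted p = 0.0247) and the hormone gene Fgf21 by 1.01 ± 0.19 (adjusted p = 0.0318). Ddit4 and Fgf21 were chosen after their values were seen. The Cth call was lost without knockdown replicate 1 or 2 at 10 mM (adjusted p = 0.0531), that of Ddit4 without any array but knockdown replicate 2 at 10 mM (adjusted p up to 0.0939) and that of Fgf21 without any array but control replicate 1 at 1 mM (adjusted p up to 0.115). At 10 mM alone Cth rose by 0.72 ± 0.12 (adjusted p = 0.0471), a call lost with any 1 array left out (adjusted p 0.0737 to 0.236).

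**Figure D4:**
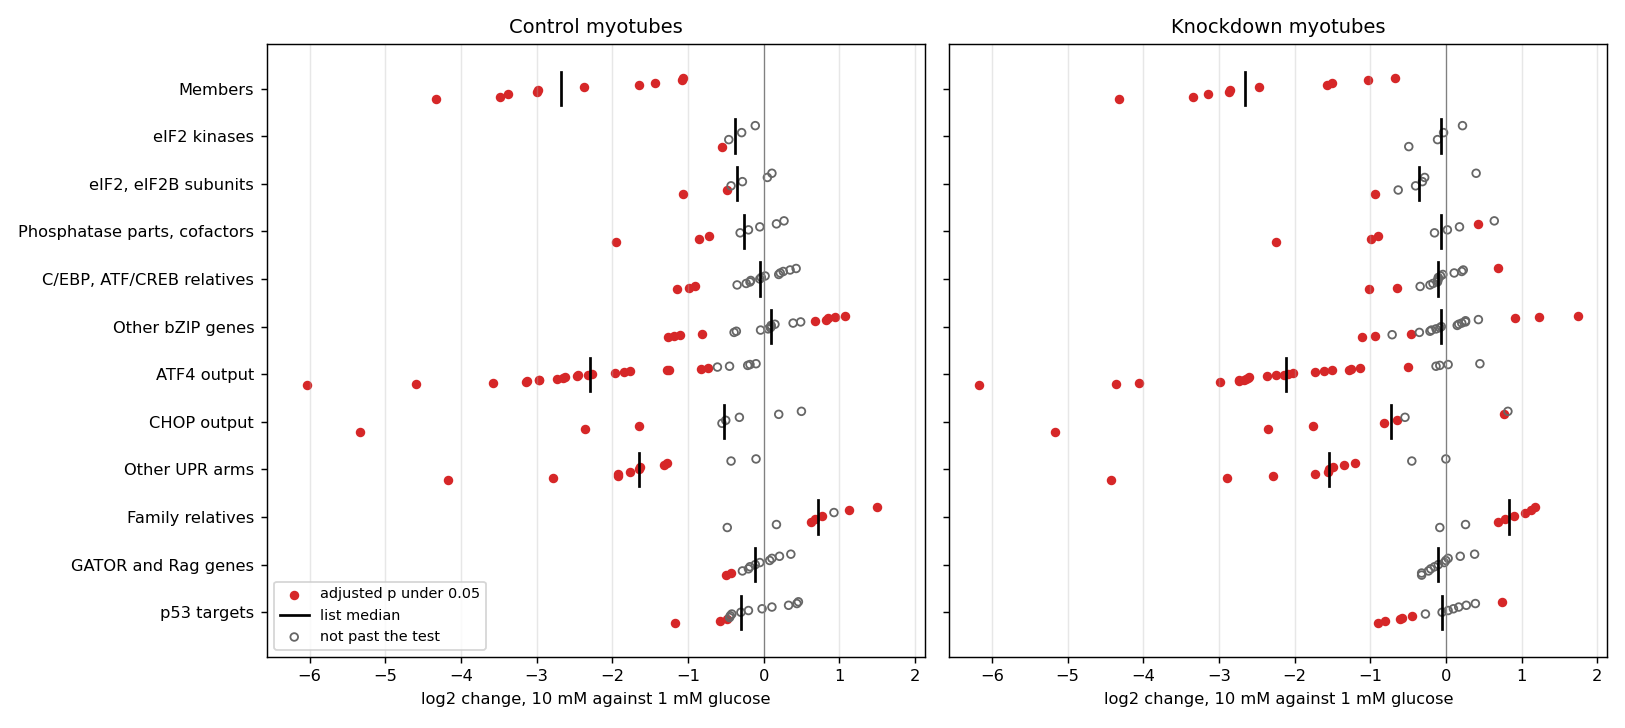
Log2 change from 1 mM to 10 mM glucose (horizontal axis) of each tested gene, by list (rows), in control (left) and knockdown cells (right); filled red points passed the test at an adjusted p under 0.05, open points did not, and black bars are list medians. The regulators (medians -2.68 and -2.66), the ATF4 output genes (-2.29 and -2.11) and the other arms of the unfolded protein response (-1.64 and -1.55) lie to the left. The row of family relatives (0.72 and 0.84) lies to the right, and some of its genes share only a name with a member.

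The list of CHOP output genes was mixed in kind and in direction. It holds Bcl2, which CHOP is known to lower, and Dnajb9, also known as a target of the IRE1 arm of the unfolded protein response. Bcl2 was among the falls in knockdown cells, so a fall in this list does not always mean lower CHOP output. Of 8, 3 fell and 0 rose in control cells and 5 fell and 1 rose in knockdown cells (medians -0.53 and -0.73), the latter falls numbering 3 without knockdown replicate 2 at 10 mM. The secreted carbonic anhydrase gene Car6 changed by -5.34 ± 0.16 and -5.17 ± 0.16, the endoplasmic reticulum cochaperone gene Dnajb9 by -2.36 ± 0.26 and -2.35 ± 0.26, and the oxidase gene Ero1a by -1.64 ± 0.15 and -1.75 ± 0.15. The death gene Pmaip1 (NOXA) was higher at 10 mM, by 0.50 ± 0.21 in control (adjusted p = 0.127) and 0.77 ± 0.21 in knockdown cells (adjusted p = 0.0339). That call was lost without knockdown replicate 1 or 2 at 10 mM or replicate 1 at 1 mM (adjusted p 0.112, 0.136 and 0.159).

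The unfolded protein response also has arms that do not pass through eIF2. Of 11 sensors and targets of the IRE1 and ATF6 arms, 9 fell, 0 rose and 2 did not pass in each cell type (medians -1.64 and -1.55). The chaperone partner gene Sdf2l1 changed by -4.17 ± 0.20 and -4.43 ± 0.20, and the chaperone gene Hspa5 (BiP) by -2.78 ± 0.15 and -2.89 ± 0.15. The degradation factor gene Herpud1 changed by -1.93 ± 0.15 and -2.28 ± 0.15. Hspa5 and Herpud1 are also known to answer to ATF4, so the arms cannot be told apart by their falls.

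Genes related to the members by family, or listed with them by name only, were read next. The list covers tribbles, sestrin, GADD and NUPR1 names. Its Gadd45 genes share a name but no family with the members, and Ddit4l is related to Ddit4, which is no member. Of 8 tested genes, 5 rose and 0 fell with glucose in control cells. In knockdown cells 6 rose and 0 fell, the direction opposite to that of the members. Sesn1 read 6.73 and 6.30 in control cells at 1 mM and 7.93 and 8.09 at 10 mM, and Sesn3 read 7.38 and 7.43 against 8.41 and 8.66. Both sestrins are known mainly as targets of p53 and FOXO factors, while Sesn2 also answers to ATF4.

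Sesn1 rose by 1.5 ± 0.23 in control cells (adjusted p = 0.00353) and 1.18 ± 0.23 in knockdown cells (adjusted p = 0.0085), the latter lost without knockdown replicate 2 at 10 mM (0.96, adjusted p = 0.0554). Sesn3 rose by 1.13 ± 0.15 in both (adjusted p = 0.00232 and 0.00205). Gadd45b, a stress-induced regulator of MAP kinase signalling, rose by 0.77 ± 0.14 and 1.05 ± 0.14. The rises numbered 3 without control replicate 1 at 10 mM in control cells, and 3 without knockdown replicate 1 or 2 at 10 mM or replicate 1 at 1 mM in knockdown cells, while 1 gene fell in control cells without control replicate 1 at 1 mM. Fibroblast and myotube markers rose with glucose in the same samples, and their part in these rises was not tested.

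Of 15 tested relatives of ATF4, ATF3 and the C/EBP genes, 3 fell and 0 rose in control cells and 2 fell and 1 rose in knockdown cells (medians -0.05 and -0.10). Atf6, the membrane-bound sensor of the unfolded protein response, changed by -0.99 ± 0.13 and -1.02 ± 0.13. Its relative Atf6b changed by -1.15 ± 0.18 and -0.64 ± 0.18 (adjusted p = 0.00419 and 0.039), the latter call lost without any knockdown array (adjusted p 0.0647 to 0.166) or either control array at 1 mM (0.0543). Creb3l4 changed by -0.90 ± 0.21 in control cells (adjusted p = 0.0193), at dim signal, and lost its call without control replicate 1 at 10 mM (adjusted p = 0.0923) or replicate 2 at 1 mM (adjusted p = 0.103). Cebpa, which acts in adipocyte and liver differentiation, rose in knockdown cells (0.69 ± 0.18, adjusted p = 0.0263), lost without any knockdown array (adjusted p 0.0844 to 0.108). Averaged over glucose the knockdown raised Creb3l1 (0.54, adjusted p = 0.0261) and lowered Atf7 (-0.48, adjusted p = 0.0283), both chosen after their values were seen, and neither call held with any 1 array left out.

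Other leucine zipper genes went both ways, with 5 rises and 4 falls among 19 in control cells and 3 rises and 3 falls in knockdown cells (medians 0.10 and -0.06). Maf rose by 1.07 ± 0.16 and 1.74 ± 0.16, and the AP-1 gene Fosl2 by 0.68 ± 0.12 and 1.23 ± 0.12. The AP-1 gene Jund rose by 0.83 ± 0.13 in control cells and was at 0.26 ± 0.13 in knockdown cells (adjusted p = 0.175). The small MAF genes Mafg and Mafk, partners of NRF2, changed by -1.18 ± 0.19 and -1.11 ± 0.22 in control and by -0.94 ± 0.19 and -1.11 ± 0.22 in knockdown cells. Bach1, which represses NRF2 target genes, fell in control cells (-0.81 ± 0.16, adjusted p = 0.0115) and was at -0.19 with the knockdown. Its change in control cells was -0.64 without control replicate 2 at 10 mM and -0.71 without replicate 2 at 1 mM. Of the 19 genes 0 passed for the interaction, so a difference between control and knockdown responses was not shown for Jund or Bach1. The falls numbered 2 without control replicate 1 or 2 at 10 mM or replicate 1 at 1 mM in control cells. In knockdown cells they numbered 0 and 1 without replicate 1 or 2 at 10 mM and 1 without replicate 2 at 1 mM.

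Genes of pathways that Sesn2 touches were read as well. Of 11 GATOR and Rag genes, which relay amino acid supply to mTORC1, 2 fell in control and 0 in knockdown cells (medians -0.11 and -0.10), Wdr59 (-0.50 ± 0.13) and Seh1l (-0.43 ± 0.12). With any control array left out 0 fell, and without either knockdown array at 10 mM 1 fell. Seh1l was at -0.16 (adjusted p = 0.456) with the mean of its probe sets. Of 13 p53 target genes 3 fell and 0 rose in control cells, and 5 fell and 1 rose in knockdown cells (medians -0.30 and -0.05). The RNA-binding protein gene Zmat3 changed by -0.58 ± 0.13 and -0.80 ± 0.13, the nuclease gene Aen by -1.17 ± 0.27 and -0.90 ± 0.27, and the p53 inhibitor gene Mdm2 by -0.61 ± 0.14 in knockdown cells, while Phlda3 rose there by 0.74 ± 0.18 (adjusted p = 0.0215). The Phlda3 call was lost without knockdown replicate 1 or 2 at 10 mM or replicate 2 at 1 mM (adjusted p 0.113, 0.0682 and 0.0995), which left 0 rises. The p53 falls numbered 0 without control replicate 1 at either concentration and 1 without replicate 2 at either in control cells, and 1 to 3 with any 1 of the 8 arrays left out in knockdown cells.

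The genes with the pattern most like that of the members were named by the correlation with the mean of the 10 over the 8 arrays. The points share 2 glucose concentrations that stand far apart, so high values are common, with 554 of 12039 candidates above 0.95, and the values are a description. Myc, the growth transcription factor, came first at r = 0.9989, followed by Aldh1l2, a mitochondrial folate enzyme (0.9986), Eprs and Nars, which charge transfer RNAs (0.9986 and 0.9977), and Car6 (0.9981). Myc changed by -3.07 in control and -2.82 in knockdown cells.

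Member by member the closest gene was Myc for Ddit3 (0.9982), the acyl-CoA thioesterase gene Acot2 for Trib3 (0.9982), Clcn7 for Atf5 (0.9986), Rcc2 for Cebpg (0.9981), Dennd4a for Sesn2 (0.9982) and Rhbdd1 for Ppp1r15a (0.9978). Eps8 was closest to Atf3 (0.9967) and the amino acid transporter gene Slc38a7 to Nupr1 (0.9968). Atf4 and Cebpb had the loosest best matches, Eef1d (0.9908) and Zfp9 (0.9885). Atf4 also had the widest gap between replicates, and Cebpb the smallest separation of the concentrations.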

How the data were processed

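Total RNA of 8 C2C12 myotube cultures, 2 per group, was hybridised to Affymetrix Mouse Gene ST 2.1 arrays. The deposited log2 values were made by the authors with RMA; the submitters' processing notes name the affy package for it. Its version and the genome build are not given in the sources used here. Probe sets annotated to 1 gene were kept (23521 of 41345), the brightest per gene (22180 genes), and genes whose mean lay above the 40th percentile (log2 2.302) were tested, 13308 in all. Limma 3.58.1 in R 4.3.3 fitted 1 mean per group over all 8 arrays (lmFit, eBayes, two-sided, Benjamini-Hochberg, threshold 0.05), and the script was tested on simulated data. Named were all 10 members, the genes of lists of 4 or fewer, otherwise up to 3 called genes per direction with the smallest p in a glucose comparison, and the best-correlated genes. Members and lists were chosen with earlier results of these data known. Alternatives were no or a stricter filter, median centring, quantile normalization, trend and robust eBayes, the mean of probe sets, only the groups compared, the replicate block, a 2-fold minimum and leaving out each array. The number of arrays limits the precision.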

Additional observations from a re-analysis of the deposited data

How the results depend on the processing

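All 160 glucose changes of the members in control cells (10 genes, 16 alternatives) kept their direction and passed the test, as did 151 of 160 in knockdown cells, the other 9 being Cebpb, which ranged from -0.84 to -0.50. No knockdown or interaction value of a member passed under any alternative run, with a smallest adjusted p of 0.0813, although some of these uncalled values turned sign, 19 of 150 for the interaction. With trend and robust eBayes 1 gene was called for the interaction, and it was no member. The direction of a member's change could turn only with median centring, quantile normalization or an array of the comparison left out. The other settings cannot alter a member's change, only its test, so a kept direction there shows nothing. Same-numbered replicates showed little shared deviation (correlations -0.038 to 0.108 over group pairs). This does not exclude that samples of the same number were handled together. With the replicate number as a block, 10 of 10 members were called in control and 9 in knockdown cells, Cebpb being lost at adjusted p = 0.0507, and all-gene calls at 10 mM between knockdown and control went from 149 to 73. With 2 arrays per group, 95% intervals of the interaction still hold differences up to 2.07-fold, and signal under log2 3, as for Slc7a11 at 10 mM, is dim.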
